A study of Rattus norvegicus with 32 samples.

Results

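Adrenalectomy removes the gland that makes corticosterone, the main glucocorticoid of the rat, together with aldosterone and most circulating adrenaline. The comparison reported here sets rats without adrenal glands against sham-operated rats, all of which breathed clean air. Apart from library numbers, the only labelled difference between the groups is the operation. Sham libraries are numbered 1 to 4 and those of rats without adrenal glands 65 to 68. What the numbers follow is not stated, and it cannot be told apart from the operation. It was made in 16 of the 32 RNA-seq libraries of the series: 8 libraries from rats with total bilateral adrenalectomy (ADREX) and 8 from sham-operated rats, chosen by their labels as all libraries of filtered air. Each operation had 4 libraries from brainstem and 4 from hypothalamus. All rats were Wistar Kyoto rats, an inbred strain, 13 weeks old, and breathed filtered air for 4 h. The other 16 libraries came from sham and ADREX rats that breathed ozone at 0.8 ppm for 4 h, and their values are set beside those of air without a test. No source used here says that libraries of a group came from separate animals, so the p-values rest on the spread among libraries, part of which may be technical.

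Glucocorticoids cross into the brain and bind the glucocorticoid receptor Nr3c1 and the mineralocorticoid receptor Nr3c2. The bound receptors move to the nucleus, bind DNA and raise or lower the transcription of target genes, among them Fkbp5, Per1, Sgk1 and Tsc22d3. In the hypothalamus corticosterone also restrains Crh and Avp, the peptides that drive the stress axis, and in the brainstem catecholamine neurons report on blood pressure, volume and stress. Many glial genes respond to glucocorticoids, including glutamine synthetase (Glul) in astrocytes and glycerol-3-phosphate dehydrogenase (Gpd1) in oligodendrocytes.

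The air libraries held 6475785 to 9824517 recovered reads each. Tissue labels matched their markers. Summed normalized counts of hindbrain Hox genes ran from 1051 to 1801 in the brainstem libraries and from 0 to 6.52 in the hypothalamus libraries, and those of hypothalamus regional markers from 147 to 286 and from 647 to 848. Transcripts of liver, such as albumin, summed to 30800 in hypothalamus sham air 2 and 28300 in hypothalamus ADREX air 68, against 246 to 1038 in the other 6 hypothalamus air libraries and 321 to 10390 in the brainstem air libraries. Choroid plexus markers summed to 18440 in hypothalamus ADREX air 67, against 3151 to 4434 in the other 7. The part of these transcripts in the results was not tested, and counts of calls without the 2 liver-rich libraries are given with the calls.

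Few genes separated the operations in air. Of 14505 genes tested, 32 passed an adjusted p under 0.05 in the pooled contrast, the mean of the brainstem and hypothalamus differences (limma, Benjamini-Hochberg adjustment). That is 0.221% of the genes tested. On the recovered reads edgeR called 29 of the 32, and DESeq2 called all 32 and further genes, a count given with the processing. The 18 that fell (0.124%) were led by Pla2g3, Heph, Gpd1 and Htra1, and the 14 that rose (0.0965%) by Top2a, Fcrl2, Gimap9 and Clcn2. Changes were small: 13 of the 32 reached 1.5-fold and 3 reached 2-fold. Over all genes tested the median log2 difference was 0.00, and 8.43% had an unadjusted p under 0.05, 4.16% higher and 4.27% lower in ADREX.

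All 32 genes had the same sign in brainstem and hypothalamus. The pooled contrast is the mean of both tissues' differences, so it favours genes of 1 sign, and the counts of signs and of overlap over these genes describe them and support nothing. The sham and ADREX libraries did not overlap in either tissue for 24 of them, a pattern that 45 of all genes tested showed (0.31%). Taken singly, 28 did not overlap in the brainstem (3.29% of all genes) and 28 not in the hypothalamus (5.08%). With limma, 0 genes passed in the brainstem alone (smallest adjusted p = 0.0867, 985 genes with an unadjusted p under 0.05), where edgeR called 0 and DESeq2 30. In the hypothalamus alone 1 gene passed (0.00689%), Fcrl2, DESeq2 called 12, and without the 2 liver-rich libraries limma called 0. The difference between the tissues' effects passed for 0 genes by limma, edgeR and DESeq2 (623 with an unadjusted p under 0.05 by limma).

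Call counts depended on single libraries. Leaving out 1 of the 16 libraries gave 11 to 34 pooled calls by limma. The count was 11 without brainstem sham 1, 11 without brainstem sham 2, 11 without hypothalamus sham 3 and 11 without hypothalamus sham 4. It was 12 without brainstem ADREX 66, 13 without brainstem ADREX 68, 13 without hypothalamus ADREX 68, 16 without brainstem sham 3 and 16 without brainstem ADREX 65. It was 17 without hypothalamus sham 1, 17 without hypothalamus ADREX 66 and 21 without hypothalamus ADREX 65. Without the 2 liver-rich libraries together it was 9, all among the 32. The call of 10 genes held in each of the 16 fits that left out 1 library: Pla2g3, Heph, Gpd1, Pygm, Slc13a5, Slc38a2, Cxcl12 and Dusp3, which fell, and Fcrl2 and Ptn, which rose. Without the 2 liver-rich libraries, Pla2g3 (limma adjusted p = 0.061), Gpd1 (0.0615) and Slc13a5 (0.0629) missed the threshold, and the other 7 of these 10 held. Of the other 22 genes, Htra1 and Apcdd1 passed without those libraries and 20 did not (limma adjusted p from 0.061 to 0.136). Same-numbered libraries of both tissues may share an animal, which the labels do not say. Leaving out both libraries of 1 number gave 1 to 41 pooled calls by limma. Without the sham libraries numbered 1, Fcrl2 alone passed, so the other genes of the 10 lost the call there. With the mean of both tissues per number as the unit, 12 of the 32 genes passed. Of the 10, Gpd1 and Pla2g3 (limma adjusted p = 0.0844 each) and Slc13a5 (0.053) missed the threshold, and the other 7 passed. Of the other 22, Htra1, Gimap9, Per3, Nnat and Sparc passed with that unit. The rest did not (limma adjusted p from 0.0533 to 0.176). The other 22 genes lost the call without at least 1 library, and the number of the 16 fits in which each held is given with the gene. Every one of the 32 kept its direction in every fit run.

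**Figure D1:**
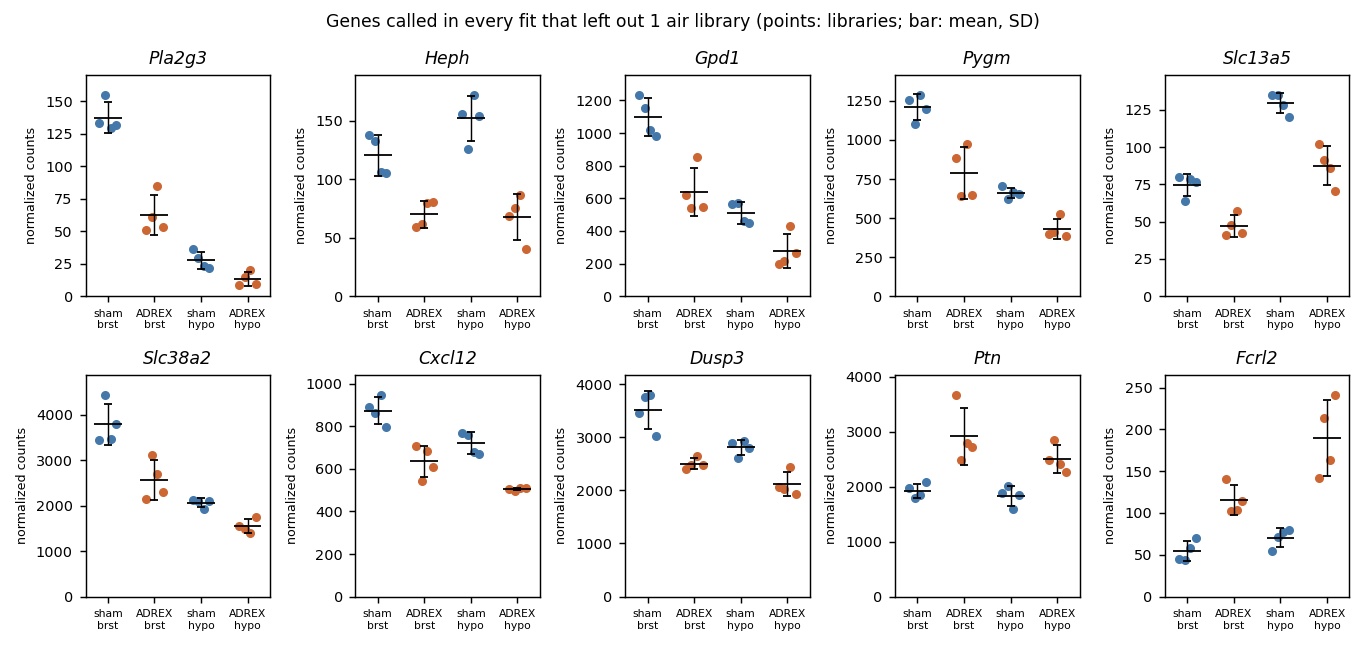
Normalized counts of the 10 genes whose call held in each fit that left out 1 air library. Points are libraries (4 per group), long bars are group means and whiskers are ± SD. Columns are sham and ADREX libraries of brainstem (brst) and hypothalamus (hypo). The sham and ADREX points of a tissue do not overlap in any panel.

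Among the genes that fell were enzymes and transporters of metabolites. Gpd1, the cytosolic enzyme that links glycolysis to glycerol-3-phosphate, fell 1.83-fold. In the brainstem, Gpd1 read 1235, 1156, 1016 and 983 normalized counts in the sham libraries and 621, 539, 856 and 549.8 in the ADREX libraries. In the hypothalamus it read 567, 571, 459 and 448 in sham and 196, 216, 428 and 264 in ADREX libraries. Every ADREX library lay below every sham library of its tissue, and hypothalamus ADREX 67, at 428, came closest to the sham range. The pooled log2 difference was -0.87 ± 0.14 (± SE, 95% interval -1.17 to -0.58, limma adjusted p = 0.013).

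Pygm, the glycogen phosphorylase that in brain is found mainly in astrocytes, releases glucose units from glycogen. Pygm stood at 1253, 1100, 1290 and 1201 normalized counts in the sham and 885, 643, 975 and 649 in the ADREX libraries of the brainstem. The hypothalamus libraries read 705, 620, 664 and 654 in sham and 400.4, 410.3, 527 and 384 in ADREX rats. The groups did not overlap in either tissue, and the fall was of like size in both, 0.64 ± 0.13 and 0.63 ± 0.13 on the log2 scale. The pooled fall was 0.63 ± 0.09, or 1.55-fold (limma adjusted p = 0.00621). Slc13a5, the plasma membrane citrate transporter, was 74.6 normalized counts in sham and 47.0 in ADREX brainstem on average, and 129.6 and 87.5 in the hypothalamus. It too separated fully in both tissues, with a pooled log2 difference of -0.62 ± 0.10 (limma adjusted p = 0.0124).

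Heph encodes hephaestin, a copper-containing ferroxidase that helps cells export iron. Sham brainstem libraries had 138, 132, 106 and 105 normalized counts of Heph, and ADREX brainstem libraries 59.1, 61.3, 79.5 and 80.1. Sham hypothalamus libraries had 155, 126, 172 and 154, and ADREX hypothalamus libraries 68.7, 75.2, 86.2 and 40.2. No ADREX library reached the lowest sham library in either tissue. Heph fell by 0.99 ± 0.14 on the log2 scale (95% interval -1.28 to -0.69, limma adjusted p = 0.00621).

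Slc38a2, the neutral amino acid transporter SNAT2, fell 1.41-fold. The brainstem counts of Slc38a2, normalized, were 3450, 4431, 3462 and 3791 in sham and 2145, 3114, 2695 and 2300 in ADREX rats. Those of the hypothalamus were 2120, 2109, 1919 and 2098 in sham and 1554, 1480, 1407 and 1757 in ADREX rats. The ranges came close in the brainstem, 3114 against 3450 at the nearest, but did not touch. Its pooled log2 difference was -0.49 ± 0.08 (limma adjusted p = 0.0124).

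Cxcl12, the chemokine that binds Cxcr4, had the smallest p of the genes that fell. In the brainstem, Cxcl12 read 889.7, 864, 948 and 795 normalized counts in the sham libraries and 706, 545, 685 and 609 in the ADREX libraries. In the hypothalamus it read 770.1, 759, 680.1 and 672 in sham and 505, 498, 508 and 513 in ADREX libraries. The 4 ADREX values of the hypothalamus lay close together, all under the lowest sham value, and the brainstem groups did not overlap either. Cxcl12 fell by 0.48 ± 0.06 on the log2 scale, or 1.4-fold (95% interval -0.61 to -0.35, limma adjusted p = 0.00318).

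Dusp3 encodes a dual-specificity phosphatase that acts on MAP kinases. Dusp3 stood at 3460, 3757, 3798 and 3023 normalized counts in the sham and 2412, 2473, 2648 and 2477 in the ADREX libraries of the brainstem. The hypothalamus libraries read 2896, 2611, 2934 and 2797 in sham and 2067, 2032, 2438 and 1939 in ADREX rats. Both tissues separated fully, and Dusp3 fell 1.36-fold (-0.45 ± 0.06 on the log2 scale, limma adjusted p = 0.00399).

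Pla2g3, a secreted phospholipase A2, fell most of the 18. Sham brainstem libraries had 134, 155, 129.7 and 132 normalized counts of Pla2g3, and ADREX brainstem libraries 51.2, 61.3, 85.2 and 53.0. Sham hypothalamus libraries had 36.1, 29.7, 23.5 and 21.4, and ADREX hypothalamus libraries 8.83, 15.1, 20.1 and 9.78. Levels in the hypothalamus were low, and the fall was of like size in both tissues, 1.15 ± 0.24 and 1.03 ± 0.24. The pooled fall was 1.09 ± 0.17, or 2.13-fold (limma adjusted p = 0.0124).

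The other 10 genes that fell lost the call when some single libraries were left out. Htra1, a secreted serine protease, fell by 0.87 ± 0.15 on the log2 scale (limma adjusted p = 0.0224, held in 9 of 16 fits). Gpatch4, a nucleolar G-patch protein, fell by 0.60 ± 0.11 (0.0371, held in 3), and Nwd1, a NACHT and WD repeat protein, by 0.58 ± 0.11 (0.0295, held in 6). Paqr8, a membrane progestin receptor, fell by 0.47 ± 0.09 (0.0295, held in 7), and Ret, the receptor tyrosine kinase of the GDNF ligands, by 0.46 ± 0.08 (0.0295, held in 3). Ctss, the lysosomal protease cathepsin S of microglia and macrophages, fell by 0.40 ± 0.07 (0.0295, held in 5). Sparc, a matrix-associated glycoprotein, fell by 0.35 ± 0.06 (0.0295, held in 7), and Slit1, a ligand of axon guidance, by 0.33 ± 0.06 (0.0459, held in 1). Ndrg2 and Glul, both abundant in astrocytes, are described with the glial markers. All of these p-values are limma adjusted p-values of the pooled contrast. ADREX and sham libraries did not overlap in either tissue for these genes, except Gpatch4, where brainstem ADREX 67 (273) exceeded brainstem sham 3 (269.7).

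Among the genes that rose, Fcrl2 had the smallest p of all genes tested. Fcrl2 belongs to the Fc receptor-like family of immune cell surface proteins. The brainstem counts of Fcrl2, normalized, were 45.2, 43.8, 58.1 and 69.8 in sham and 141, 102, 103 and 115 in ADREX rats. Those of the hypothalamus were 54.1, 70.9, 77.1 and 79.4 in sham and 141, 214, 163 and 241 in ADREX rats. Each ADREX library was above each sham library of its tissue. Fcrl2 rose 2.37-fold, by 1.25 ± 0.13 on the log2 scale (95% interval 0.96 to 1.53, limma adjusted p = 0.000721).

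Ptn encodes pleiotrophin, a heparin-binding growth factor. In the brainstem, Ptn read 1975, 1793, 1853 and 2082 normalized counts in the sham libraries and 3669, 2492, 2787 and 2726 in the ADREX libraries. In the hypothalamus it read 1881, 2017, 1592 and 1840 in sham and 2477, 2856, 2414 and 2274 in ADREX libraries. The brainstem value of ADREX 65 stood above the rest, and the groups did not overlap in either tissue. Ptn rose 1.43-fold, by 0.52 ± 0.08 on the log2 scale (limma adjusted p = 0.00867).

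Another 12 genes rose with calls that were lost without at least 1 library. Immune and cell-surface genes among them were Gimap9, a GTPase of immune-associated proteins (0.99 ± 0.18, limma adjusted p = 0.0295, held in 6 of 16 fits), and Tnfsf13, the B-cell cytokine APRIL (0.58 ± 0.11, 0.0413, held in 3). Ninj2, the adhesion protein ninjurin 2, rose by 0.72 ± 0.14 (0.0389, held in 2). Clcn2, a chloride channel, rose by 0.86 ± 0.16 (0.0295, held in 5), and Rab7b, a small GTPase of late endosomes, by 0.58 ± 0.11 (0.0459, held in 1). Dffb, the caspase-activated DNase, rose by 0.42 ± 0.08 (0.0459, held in 2), and Nnat, the small membrane protein neuronatin, by 0.40 ± 0.08 (0.0459, held in 1). Apcdd1, an inhibitor of Wnt signalling, rose by 0.39 ± 0.07 (0.0438, held in 2), and Olfml1, an olfactomedin-like protein, by 0.29 ± 0.05 (0.0224, held in 10). ADREX and sham libraries overlapped in the brainstem for Tnfsf13, Rab7b and Dffb, and in the hypothalamus for Clcn2, Nnat and Apcdd1. For Gimap9, Ninj2 and Olfml1 they did not overlap in either tissue. Per3 and Cnp are described below. edgeR did not call Nnat, Rab7b or Slit1, and called the other 29 of the 32. Fcrl2 and Gimap9 belong to families of similar genes, and how reads shared between family members were counted is not stated in the labels.

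Top2a, the topoisomerase of dividing cells, had the largest fitted rise and the weakest call. Top2a stood at 3.23, 12.5, 22.8 and 15.3 normalized counts in the sham and 45.5, 38.1, 23.9 and 32.5 in the ADREX libraries of the brainstem. The hypothalamus libraries read 2.41, 5.75, 9.41 and 6.24 in sham and 19.6, 21.1, 24.3 and 14.1 in ADREX rats. These are low levels, from 2.41 to 45.5 normalized counts, and the groups did not overlap in either tissue. The rise was 1.59 ± 0.32 on the log2(value + 1) scale (limma adjusted p = 0.0495, held in 1 of 16 fits). Microglia markers, beside the immune genes above, summed to 2160 to 2256 normalized counts in sham and 2183 to 2400 in ADREX brainstem. In the hypothalamus they summed to 1923 to 2074 in sham and 2048 to 2379 in ADREX, so the ranges overlapped in both tissues. Of 11 microglia markers tested, 0 passed and 1, Aif1 (0.42 ± 0.13), had an unadjusted p under 0.05. The part of microglia number in the immune genes' rise was not tested.

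**Figure D2:**
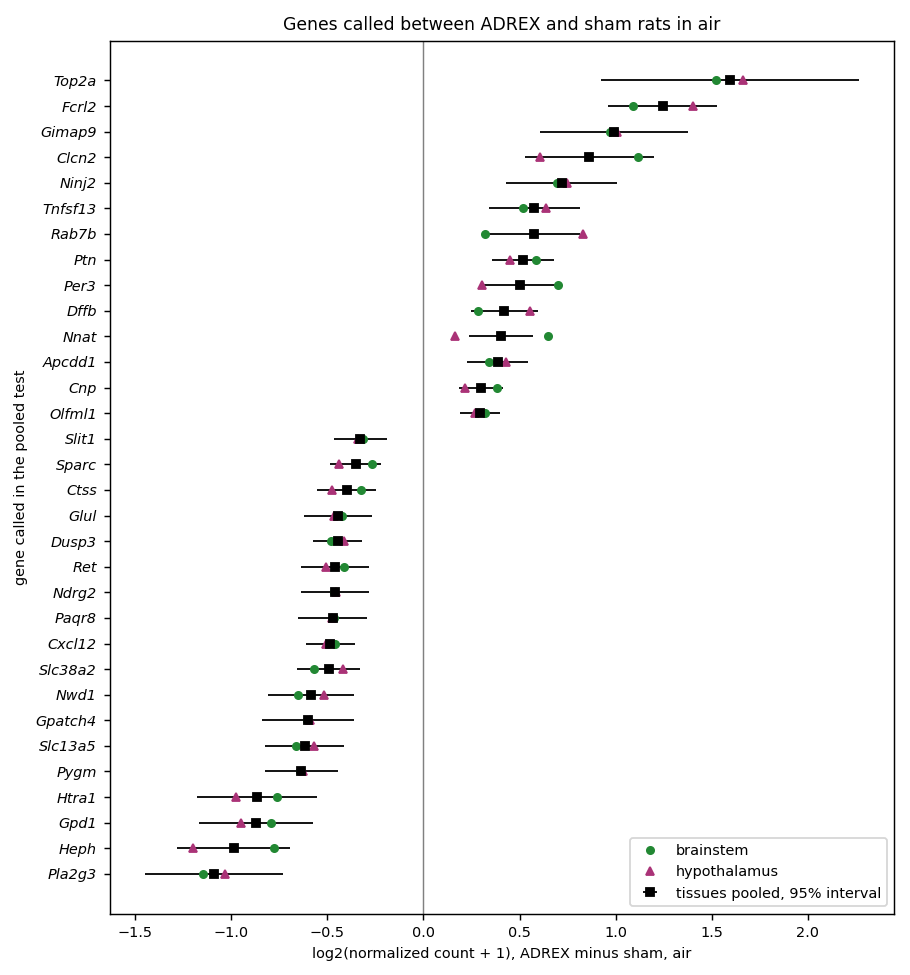
Log2 difference between ADREX and sham rats in air for the 32 called genes, on the log2(normalized count + 1) scale. Squares with lines are the pooled estimate and its 95% interval, circles the brainstem and triangles the hypothalamus. All 32 genes lie on the same side of 0 in both tissues, and the intervals of Top2a, Pla2g3 and Gimap9 are among the widest.

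Most listed glucocorticoid-responsive genes were lower in value in ADREX rats in air, and a single one passed. Of 35 listed glucocorticoid-responsive genes tested, 1 passed, Gpd1, which fell (0.221% of all genes passed). In 30 of the 35 the pooled difference was negative, the list's median was -0.244 on the log2 scale against 0.00 over all genes, and 15 (42.9%, against 8.43% of all genes) had an unadjusted p under 0.05, 14 of them lower in ADREX. edgeR called Gpd1 of this list, and DESeq2 called Gpd1, Sgk1, Klf9, Gjb6, Fam107a (lower) and Lcn2 (higher). Over the alternative fits the median stayed between -0.283 and -0.181, with 11 to 18 members lower at an unadjusted p under 0.05. This list and those below were chosen with earlier results of these data known. Their shares and medians, set beside those of all genes, therefore describe the lists and support nothing.

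Fkbp5, the co-chaperone that dampens the glucocorticoid receptor and one of its most direct targets, did not separate. Sham brainstem libraries had 238, 281, 234 and 304 normalized counts of Fkbp5, and ADREX brainstem libraries 242, 193, 262 and 202. Sham hypothalamus libraries had 217, 342, 232 and 209, and ADREX hypothalamus libraries 231, 247, 235 and 189. The groups overlapped in both tissues. The pooled difference was -0.18 ± 0.11 with a 95% interval from -0.41 to 0.05 (limma adjusted p = 0.679). Tsc22d3, the glucocorticoid-induced leucine zipper protein, differed by -0.13 ± 0.07 (95% interval -0.28 to 0.01, limma adjusted p = 0.624), and its groups overlapped too.

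Sgk1, a kinase that corticosteroids induce and that governs sodium transport, had one of the largest negative differences of the list without passing in limma. The brainstem counts of Sgk1, normalized, were 958, 384, 421 and 514 in sham and 218, 257, 300 and 248 in ADREX rats. Those of the hypothalamus were 830.3, 302, 292 and 489.6 in sham and 195, 209, 347 and 289 in ADREX rats. In the brainstem all 4 ADREX values were below the sham values, and in the hypothalamus the ranges overlapped. The libraries numbered sham 1 were the highest in both tissues, at 958 and 830.3. The pooled difference was -0.92 ± 0.22 (95% interval -1.38 to -0.46, limma adjusted p = 0.131), and DESeq2 called it (adjusted p = 0.0195).

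Other members did not pass either. Klf9, a steroid-responsive transcription factor, differed by -0.42 ± 0.09, Klf15 by -0.33 ± 0.13, the cell-cycle inhibitor Cdkn1a by -0.43 ± 0.12 (limma adjusted p = 0.235) and the metallothionein Mt2A by -0.42 ± 0.32. Zbtb16, a zinc finger factor, differed by -0.54 ± 0.23 and Sult1a1, a sulfotransferase, by -0.92 ± 0.30. Lcn2, the acute-phase protein lipocalin 2, was the member farthest in the other direction, at 0.99 ± 0.22.

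Fam107a, an actin-associated protein known to be induced by glucocorticoids, had one of the smallest p-values in the brainstem. In the brainstem, Fam107a read 606, 811, 682 and 827 normalized counts in the sham libraries and 425, 479.5, 507 and 524 in the ADREX libraries. In the hypothalamus it read 1837, 1995, 1827 and 1848 in sham and 1974, 1704, 1859 and 1831 in ADREX libraries. The brainstem groups did not overlap, the hypothalamus groups did. The difference was -0.59 ± 0.10 in the brainstem and -0.03 ± 0.10 in the hypothalamus, which gave a limma adjusted p of 0.0853 pooled, 0.0867 in the brainstem and 0.999 for the tissue difference. It passed pooled without brainstem sham 1 (limma adjusted p = 0.0421).

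**Figure D3:**
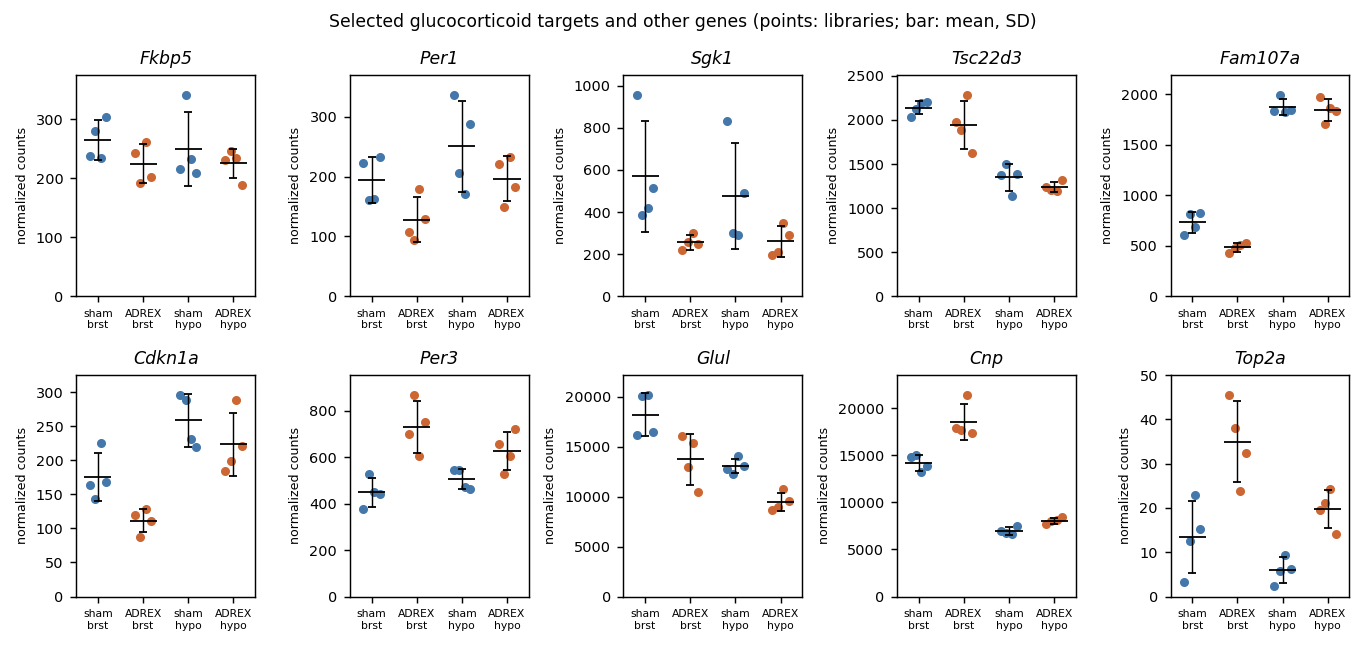
Normalized counts per air library of glucocorticoid targets (Fkbp5, Per1, Sgk1, Tsc22d3, Fam107a and Cdkn1a) and of Per3, Glul, Cnp and Top2a. Points are libraries (4 per group), long bars are means and whiskers ± SD. Of the first 6 genes none passed the pooled test, and the sham and ADREX points overlap in both tissues for Fkbp5, Per1 and Tsc22d3.

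The bound glucocorticoid receptor recognizes a pair of short inverted sites, so start-site windows of the called genes were searched for them. RefSeq windows of assembly GRCr8, 300 bases from 250 before to 50 after a gene's start, were in hand for 26 of the 32 called genes, 14 that fell and 12 that rose. The relaxed paired site, GNACA and TGTNC with 3 bases between, was in 0 of the 14 and 0 of the 12, and in 0.439% of all 33469 windows. The full site, AGAACA and TGTTCT with 3 bases between, was in 0 of the 14 and 0 of the 12, against 0.0149% of all windows. The single site AGAACA, on either strand and also counted inside a paired site, was in 1 called gene, Ninj2, against 20.7% of all windows. CACGTG, the E-box of clock proteins, was in 1, Gpatch4, against 6.42%, and TTATGTAA, the D-box, in 0 against 0.893%. Of the genes named here, called or not, Fam107a held the relaxed paired site, as GGACATGGTGTTC from base 41 of its window.

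The 250 bases before the start are shown for the genes these matches turn on, Fam107a and Ninj2, and for Cxcl12 and Pygm, called genes that fell without a match. They are RefSeq sequence of GRCr8, plus strand, at chr15:19046331-19046580, chr4:154978551-154978800, chr4:152060531-152060780 and chr1:213119555-213119804. Capitals mark the relaxed paired site with the single site that overlaps it in Fam107a and the single site on the minus strand in Ninj2. Each match is a description of these letters, not a shown binding site.
Fam107a: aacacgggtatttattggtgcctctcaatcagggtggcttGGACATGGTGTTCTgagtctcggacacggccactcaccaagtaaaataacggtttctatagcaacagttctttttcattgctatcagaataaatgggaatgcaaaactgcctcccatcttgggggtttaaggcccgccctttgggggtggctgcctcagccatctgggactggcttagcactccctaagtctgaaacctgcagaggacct
Ninj2: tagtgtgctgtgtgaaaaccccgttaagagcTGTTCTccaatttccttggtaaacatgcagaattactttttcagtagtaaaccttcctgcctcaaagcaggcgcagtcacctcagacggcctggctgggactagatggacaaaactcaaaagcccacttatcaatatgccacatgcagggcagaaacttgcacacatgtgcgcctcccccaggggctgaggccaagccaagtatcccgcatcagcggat
Cxcl12: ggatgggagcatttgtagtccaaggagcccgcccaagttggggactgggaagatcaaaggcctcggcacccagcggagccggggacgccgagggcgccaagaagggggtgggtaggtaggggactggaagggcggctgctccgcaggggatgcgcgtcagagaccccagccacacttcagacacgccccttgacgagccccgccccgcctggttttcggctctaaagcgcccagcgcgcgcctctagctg
Pygm: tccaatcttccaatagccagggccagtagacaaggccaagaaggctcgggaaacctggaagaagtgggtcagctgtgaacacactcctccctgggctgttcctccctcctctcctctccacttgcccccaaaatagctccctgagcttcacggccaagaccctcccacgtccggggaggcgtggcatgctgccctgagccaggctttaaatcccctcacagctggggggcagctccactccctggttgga

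Corticosteroid receptors and hormone-handling genes did not pass. Of 15 such genes tested, 0 passed and 1, the chaperone Hsp90aa1 (-0.14 ± 0.06), had an unadjusted p under 0.05. The glucocorticoid receptor Nr3c1 was at 1142 ± 99.2 (SD, n = 4) normalized counts in sham and 1160 ± 115 in ADREX brainstem, and at 1291 ± 136 and 1327 ± 231 in the hypothalamus. Its pooled difference was 0.03 ± 0.08 (95% interval -0.15 to 0.20). The mineralocorticoid receptor Nr3c2 differed by -0.04 ± 0.12 (-0.29 to 0.21) and Hsd11b1, the enzyme that regenerates active glucocorticoid, by -0.06 ± 0.13 (-0.34 to 0.22). The signs of these 3 differences changed in some of the alternative fits.

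Peptides of the stress axis did not pass either. Of 17 tested, 0 passed in limma and 1, Trh (-0.26 ± 0.12), had an unadjusted p under 0.05. Crh, which corticosterone restrains in the paraventricular nucleus, read 14.4, 17.2, 27.3 and 24.1 normalized counts in sham and 27.5, 24.1, 25.1 and 21.7 in ADREX hypothalamus. The ranges overlapped and the hypothalamus difference was 0.27 ± 0.22, with a limma adjusted p of 0.903. Avp, vasopressin, read 326, 228, 581 and 579.6 in sham and 394, 373, 349 and 274 in ADREX hypothalamus, also overlapping. Oxytocin (Oxt) differed by -0.34 ± 0.52 there and Pomc, the precursor of ACTH and melanocortins, by -0.56 ± 0.53. In these libraries of hypothalamus, Crh of the paraventricular nucleus and of other nuclei cannot be told apart.

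Catecholamine genes showed no called change. Of 17 tested, 0 passed in limma, 0 had an unadjusted p under 0.05, and edgeR and DESeq2 called 0. Th, which makes the catecholamine precursor, was at 135 ± 14.4 (SD, n = 4) normalized counts in sham and 149 ± 15.7 in ADREX brainstem. Dbh, the enzyme of noradrenaline synthesis, was at 182 ± 34.3 and 151 ± 30.7 in the brainstem, with overlapping groups. Pnmt, the enzyme of adrenaline synthesis, and Agrp, a feeding peptide, had a mean under 10 and were not tested. Pnmt read 0 to 2.15 in sham and 0 to 3.41 in ADREX brainstem, and Agrp 1.92 to 8.47 in sham and 0.981 to 14 in ADREX hypothalamus. Feeding peptides and receptors had 0 of 16 called and 1, Glp1r, at an unadjusted p under 0.05, with Npy at 0.15 ± 0.22 pooled.

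Sodium-handling and renin-angiotensin genes, a group that aldosterone bears on, had 0 of 15 called by limma. An unadjusted p under 0.05 was reached by 3 (20%, against 8.43% of all genes), all lower. Among them were angiotensinogen (Agt, -0.18 ± 0.06, limma adjusted p = 0.466) and the aminopeptidase Lnpep (-0.78 ± 0.35). The epithelial sodium channel subunit Scnn1a was at 0.15 ± 0.22. DESeq2 called 1 member of this list, lower.

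Clock genes had 1 of 20 called, Per3, which rose. Per3 stood at 376, 526, 450.1 and 441 normalized counts in the sham and 697, 867, 603 and 749 in the ADREX libraries of the brainstem. The hypothalamus libraries read 543, 542, 473 and 465 in sham and 656, 526, 604 and 721 in ADREX rats. The brainstem groups did not overlap, and in the hypothalamus ADREX 66 (526) lay among the sham values. Per3 rose by 0.50 ± 0.09 on the log2 scale, 1.42-fold (limma adjusted p = 0.0285, held in 9 of 16 fits, 0.0699 without the liver-rich libraries). Another 6 members had an unadjusted p under 0.05 without passing, which with Per3 was 35% of the list, against 8.43% of all genes. Dbp (0.25 ± 0.10), Bhlhe41 (0.25 ± 0.11) and Tef (0.18 ± 0.05) were higher in value, and Per1 (-0.47 ± 0.16), Npas2 (-0.33 ± 0.08) and Arntl (-0.20 ± 0.08), the partner of Clock, lower. Per1 is also in the list of glucocorticoid-responsive genes. The labels give no time of day for the samples, so clock phase and operation cannot be told apart.

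Lipid and fuel genes had 1 of 24 called by limma, Gpd1, to which DESeq2 added Pex11a. In this list 9 had an unadjusted p under 0.05 (37.5%, against 8.43% of all genes), all 9 lower. Besides Gpd1 they were Angptl4 (-0.42 ± 0.18), Pdk4 (-0.41 ± 0.16), the kinase that switches off pyruvate oxidation, Pex11a (-0.37 ± 0.09), Pnpla2 (-0.22 ± 0.07), Ppargc1a (-0.21 ± 0.09), Gpd2 (-0.20 ± 0.07), Acsl6 (-0.16 ± 0.05) and Fasn (-0.09 ± 0.04). The list's median was -0.131, and 18 of 24 members were negative. Gpd1, Angptl4 and Pdk4 are also among the glucocorticoid-responsive genes. Cholesterol synthesis genes had 0 of 22 called and a median of -0.073. An unadjusted p under 0.05 was reached by 3 (13.6%), all lower in value, Insig1 and Fdft1 among them.

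Inflammatory and acute-phase genes had 0 of 15 called and a median of 0.26. DESeq2 called Lcn2 higher. An unadjusted p under 0.05 was reached by 6 (40%, against 8.43% of all genes). Higher in value were Lcn2 (0.99 ± 0.22), Osmr (0.61 ± 0.23), the prostaglandin synthase Ptgs2 (0.48 ± 0.21), Tlr2 (0.26 ± 0.09) and Vcam1 (0.20 ± 0.06). The NF-kB inhibitor Nfkbia (-0.41 ± 0.14) was lower. Interferon and antigen-presentation genes had 0 of 23 called and 0 at an unadjusted p under 0.05, and immediate early genes had 0 of 20 called and 1, Fosb, at that level.

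**Figure D4:**
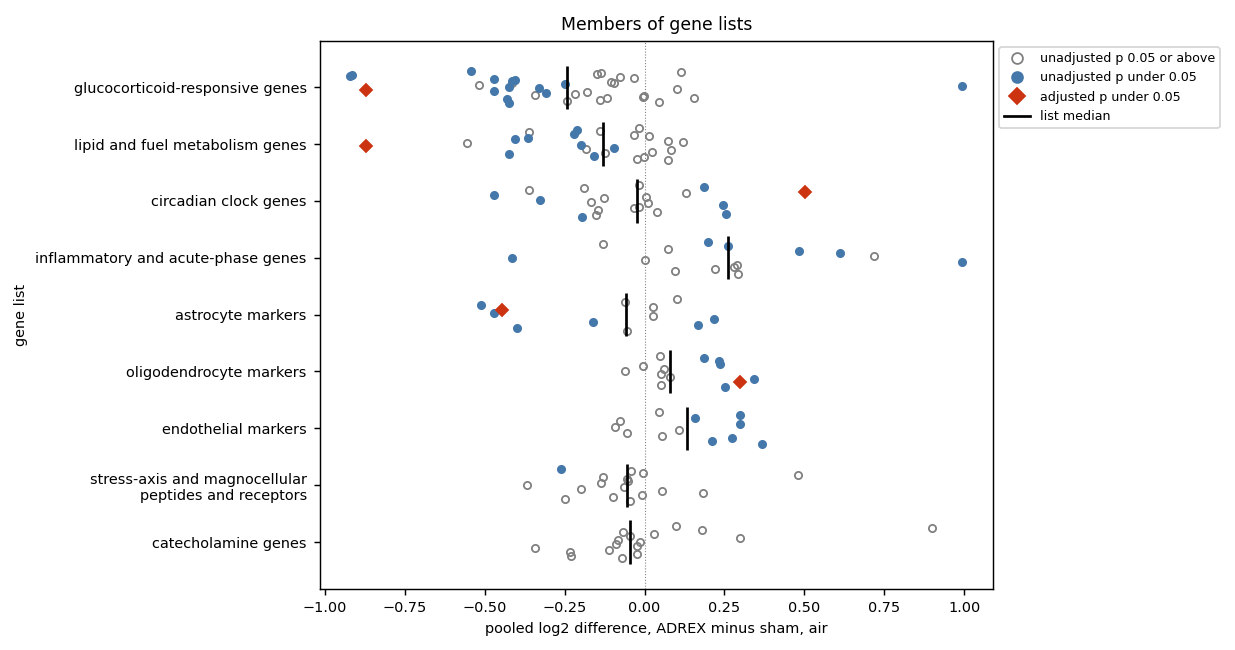
Pooled log2 difference (ADREX minus sham, air) of each tested member of 9 gene lists. Open circles had an unadjusted p of 0.05 or above, filled circles below it, diamonds passed after adjustment, and black bars are list medians. The glucocorticoid-responsive list has its median at -0.244 with 1 diamond, Gpd1, and the catecholamine list has no filled point.

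Astrocyte markers did not move as a block. Of 12 tested, 1 passed, Glul, the enzyme that makes glutamine from glutamate, which fell. Sham brainstem libraries had 16220, 20090, 20190 and 16440 normalized counts of Glul, and ADREX brainstem libraries 16130, 12950, 15380 and 10460. Sham hypothalamus libraries had 12800, 12320, 14080 and 13090, and ADREX hypothalamus libraries 8653, 8980, 10740 and 9524. The groups did not overlap, narrowly in the brainstem, where ADREX 65 (16130) was next to sham 1 (16220). Glul fell by 0.44 ± 0.08 on the log2 scale (limma adjusted p = 0.0394, held in 5 of 16 fits, 0.0949 without the liver-rich libraries). Ndrg2, a stress-responsive protein abundant in astrocytes, fell by 0.46 ± 0.08 (limma adjusted p = 0.0295, held in 5 of 16). Without passing, the glutamate transporter Slc1a2 stood at -0.51 ± 0.13, the gap junction protein Gjb6 at -0.47 ± 0.10, Aldoc at -0.40 ± 0.08 and Fgfr3 at -0.16 ± 0.07. The water channel Aqp4 (0.17 ± 0.06) and the filament protein Gfap (0.22 ± 0.08) stood on the other side of 0, also without passing. DESeq2 called Slc1a2, Gjb6 and Aldoc lower. These 7, Glul included, were the members with an unadjusted p under 0.05 (58.3%, against 8.43% of all genes).

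The summed level of the astrocyte markers was 65630 to 72570 normalized counts in sham and 59230 to 69430 in ADREX brainstem, which overlapped. In the hypothalamus it was 42650 to 45680 in sham and 39080 to 42370 in ADREX, which did not. The sum includes Glul itself, whose hypothalamus mean was 13070 in sham and 9473 in ADREX rats. It is therefore no measure of astrocyte content separate from the fall of Glul. In bulk tissue, fewer cells of a type and less RNA per cell cannot be told apart. How far astrocyte content bears on Glul, Ndrg2 and Pygm was not tested.

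Oligodendrocyte markers had 1 of 13 called, Cnp, an enzyme of myelin, which rose. The brainstem counts of Cnp, normalized, were 14840, 14970, 13180 and 13870 in sham and 17850, 17630, 21390 and 17330 in ADREX rats. Those of the hypothalamus were 6936, 6694, 6591 and 7511 in sham and 7649, 8023, 8111 and 8451 in ADREX rats. Neither tissue overlapped. Cnp rose by 0.30 ± 0.05 on the log2 scale, 1.23-fold (limma adjusted p = 0.0295, held in 6 of 16 fits, 0.117 without the liver-rich libraries). The myelin genes Ermn (0.34 ± 0.14), Aspa (0.25 ± 0.06), Mog (0.24 ± 0.05) and Opalin (0.23 ± 0.06) had an unadjusted p under 0.05 without passing, and DESeq2 called Mog and Opalin higher. Mbp stood at 0.06 ± 0.07 and Mobp at -0.01 ± 0.07. The markers summed to 386100 to 445700 in sham and 400800 to 480300 in ADREX brainstem, overlapping, and to 131300 to 147300 and 158800 to 174300 in the hypothalamus, where they did not overlap. The part of oligodendrocyte or white matter content in the rise of Cnp was not tested.

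Endothelial markers had 0 of 12 called and 6 with an unadjusted p under 0.05 (50%, against 8.43% of all genes), all higher in value. They were the junction proteins Cdh5 (0.37 ± 0.12) and Cldn5 (0.21 ± 0.09), the receptors Tie1 (0.30 ± 0.09) and Tek (0.16 ± 0.07), Slco1a4 (0.30 ± 0.10) and Emcn (0.27 ± 0.13). Neuron markers had 0 of 13 called, 1 at an unadjusted p under 0.05 (Map2, -0.14 ± 0.06) and a median of -0.03. Of the remaining marker lists, ependymal, mural, precursor, pituitary, choroid plexus, cerebellar, red blood cell and liver, 0 members passed in limma, and 3 had an unadjusted p under 0.05, namely Enpp2, Cga and Zic2. Respiratory chain genes had 0 of 21 called and 0 at an unadjusted p under 0.05, and ribosomal protein genes 0 of 20 called and 1, Rps6, at that level. Hypothalamus regional markers (0 of 8) and hindbrain Hox genes (0 of 10) had no call and 0 at an unadjusted p under 0.05. Of all listed genes, edgeR called Gpd1, Per3, Cnp and Glul.

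The tissues' effects differed most, by unadjusted p, for Fam107a, Chchd1, Hmg1l1 and 2 genes without an established symbol, none of which passed (limma adjusted p = 0.999 for each). Chchd1, a small mitochondrial protein, stood at -0.60 ± 0.22 in the brainstem and 0.75 ± 0.22 in the hypothalamus. Of the 32 called genes, 3 had an unadjusted p under 0.05 for the tissue difference. Nnat was 0.65 ± 0.11 and 0.16 ± 0.11 in brainstem and hypothalamus, Per3 0.70 ± 0.12 and 0.30 ± 0.12, and Rab7b 0.32 ± 0.16 and 0.83 ± 0.16. For Nnat the groups separated in the brainstem and overlapped in the hypothalamus, and for Rab7b the reverse.

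The same contrast in the ozone libraries, which share no sample with those of air, was fitted separately and is given as values without a test. Of the 32 genes, 31 had the same sign there, all 18 that fell in air and 13 of the 14 that rose. Clcn2 was the exception, at 0.86 ± 0.16 in air and -0.27 ± 0.15 in ozone. Over all genes of the ozone fit, 50.5% of the differences were negative. Among the 31, Nnat (0.10 ± 0.15), Dffb (0.06 ± 0.08) and Slit1 (-0.13 ± 0.14) were closer to 0 in ozone than their SE. The difference was larger in ozone for 19 of the 31, 13 that fell and 6 that rose. The median size over the 32 was 0.51 in air and 0.627 in ozone. Brainstem ADREX ozone 81 stood apart from the other ADREX ozone libraries of its tissue for some genes. It read 577 for Tsc22d3 (others 1941 to 1962), 81.6 for Sgk1 (others 245 to 273) and 664 for Htra1 (others 302 to 342). It stayed in the ozone fit, and its part in the ozone values was not tested.

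The gap between exposures was wide for a few genes that fell. Pla2g3 differed by -1.09 ± 0.17 in air and -3.44 ± 0.18 in ozone, Gpd1 by -0.87 ± 0.14 and -2.78 ± 0.09, and Gpatch4 by -0.60 ± 0.11 and -2.41 ± 0.10. Other genes had values closer to each other. Fcrl2 differed by 1.25 ± 0.13 in air and 1.29 ± 0.14 in ozone, Top2a by 1.59 ± 0.32 and 1.58 ± 0.21, Gimap9 by 0.99 ± 0.18 and 0.94 ± 0.27, and Slc38a2 by -0.49 ± 0.08 and -0.43 ± 0.07. Slc13a5 was smaller in ozone, -0.62 ± 0.10 against -0.29 ± 0.10. Some glucocorticoid targets that did not pass in air had large differences in ozone. Fkbp5 differed by -0.18 ± 0.11 in air and -2.52 ± 0.09 in ozone, and Cdkn1a by -0.43 ± 0.12 and -3.02 ± 0.14. Zbtb16 differed by -0.54 ± 0.23 and -2.92 ± 0.25, and Sgk1 by -0.92 ± 0.22 and -2.26 ± 0.32. Differences in ozone were smaller for Per1 (-0.95 ± 0.13), Tsc22d3 (-0.81 ± 0.20) and Fam107a (-0.69 ± 0.10). Mean Fkbp5 in the brainstem was 264 normalized counts in sham air and 1308 in sham ozone libraries, against 225 and 208 in ADREX. Over the 35 glucocorticoid-responsive genes the median was -0.244 in air and -0.98 in ozone. Whether the operation's effect differs between exposures was not tested here.

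**Figure D5:**
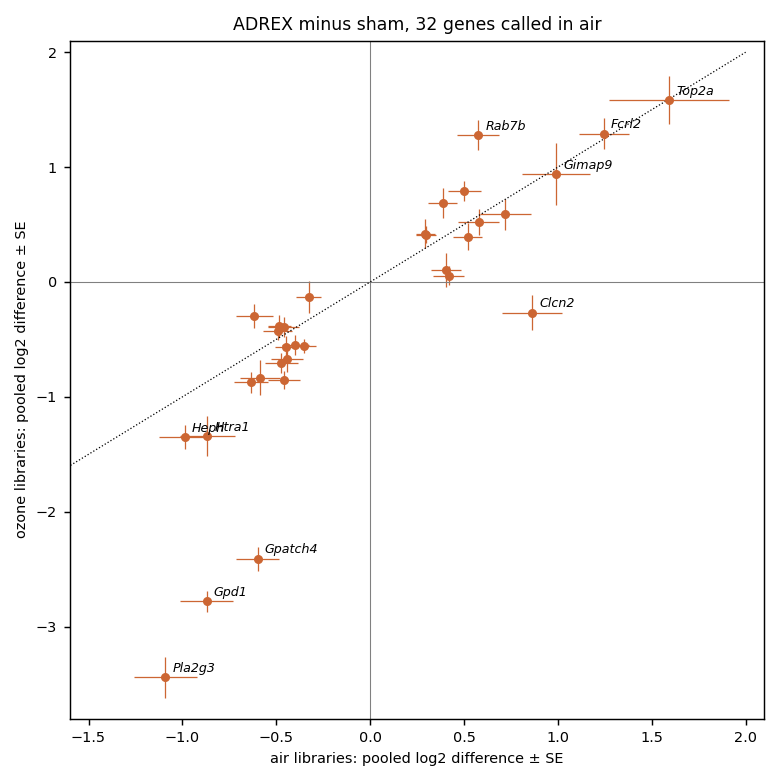
Pooled log2 difference between ADREX and sham rats for the 32 genes called in air, in the air libraries (x axis) and in the ozone libraries (y axis). Points are estimates, lines ± SE, and the dotted line marks equal values. Pla2g3, Gpd1 and Gpatch4 lie far below the line, and Clcn2 is the single gene with opposite signs.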

How the data were processed

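Messenger RNA libraries of brainstem and hypothalamus were analysed from the signal the authors deposited: normalized read counts per gene, 22587 genes in 32 libraries. The submitters' processing notes name Partek, DESeq2 and the rat build rn6. Which step each served is not stated, and aligner, annotation and strand handling are not given in the sources. Each deposited column held whole multiples of 1 step (100% of values whole within 0.001), so reads were recovered by dividing by that step, 6475785 to 9824517 per air library.

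Groups came from the labels. log2(value + 1) of genes with a mean of 10 or more over the 16 air libraries was fitted with limma 3.58.1 (R 4.3.3), with 4 tissue-by-operation means, a trended prior and Benjamini-Hochberg adjustment over 14505 genes. A fold change on that scale understates the change of low genes. The same fit on the 16 ozone libraries gave the values set beside. A call is an adjusted p under 0.05. edgeR 4.0.16 called 29 genes and DESeq2 1.42.0 called 78 on the recovered reads, and both are alternatives. No pair of libraries in a group was alike within counting noise.

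The members and the 29 gene lists were chosen with earlier results of these data known. Named genes were, by rule, the 10 called genes with the largest change in each direction that had a mean of 50 or more and no overlap in either tissue, called list members (up to 4 per list), a panel of 21 genes and the 5 smallest p per tissue and for the tissue difference. The other called genes were named because they passed. Promoter windows and names are from RefSeq, assembly GRCr8, with 53 of 55 named genes matched. Alternatives were other pseudocounts, filters, scalings, weights and tools, all 32 libraries in 1 fit, a replicate block, an additive model, single tissues, and each library or label number left out. A few members of the lists are counted but not reported here by name.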

Additional observations from a re-analysis of the deposited data

Results flagged for a closer look

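In 17 of 252 sets of 4 air libraries checked (the named genes and 8 summed marker lists, each per tissue and operation), 1 library stood apart by Dixon's 95% criterion, a gap over 0.829 of the group's range. Chance alone gives about 1 in 20. The values are normalized counts.

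The widest gaps were in transcripts of other tissues. Liver transcripts summed to 30800 in hypothalamus sham 2, against 246 to 289 in the other 3, and to 28300 in hypothalamus ADREX 68, against 418 to 1038. Choroid plexus markers summed to 18440 in hypothalamus ADREX 67, against 3818 to 4434, and astrocyte markers to 42370 in the same library, against 39080 to 39640.

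Among genes that fell, Htra1 was highest in brainstem ADREX 67 (408, others 340 to 345), Pla2g3 in brainstem sham 2 (155, others 130 to 134) and Ctss in hypothalamus sham 3 (970, others 816 to 834). Slc38a2 was lowest in hypothalamus sham 3 (1919, others 2098 to 2120) and Gpatch4 in brainstem sham 3 (269.7, others 325 to 335). Among genes that rose, Cnp was highest in brainstem ADREX 67 (21390, others 17330 to 17850) and Ninj2 in brainstem ADREX 65 (102, others 81.2 to 84.4).

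Of the genes without a call, Zbtb16 was highest in hypothalamus sham 2 (82.4, others 32.5 to 37.5), as was Fam107a (1995, others 1827 to 1848). Npy was highest in hypothalamus sham 3 (39.5, others 23.2 to 25.3). Nr3c1 was lowest in brainstem sham 1 (994, others 1171 to 1202), Th in brainstem ADREX 66 (126, others 155 to 160.4) and Oxt in hypothalamus ADREX 68 (166, others 327 to 353).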

How the results depend on the processing

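The pooled count of 32 called genes stayed within 1.5 times under other pseudocounts, a mean of 50 or more, median-of-ratios or quantile scaling, sample weights, edgeR, all 32 libraries and an additive model, from 28 to 41. It was 17 without a filter on low values, 78 with DESeq2 and 9 without the 2 liver-rich libraries. In the brainstem, where limma called 0, sample weights gave 2, DESeq2 30 and all 32 libraries 4. In the hypothalamus, where 1 was called, no filter gave 2, quantile scaling 3, sample weights 2, DESeq2 12, all 32 libraries 3, no liver-rich libraries 0 and the hypothalamus libraries alone 0. The cause was not tested. The tissue difference gave 0 calls in each fit.

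Leaving out 1 library or both libraries of 1 number gave 1 to 41 pooled calls, the 1 being Fcrl2 without the sham libraries numbered 1. The brainstem gave 0 to 2 and the hypothalamus 0 to 4. Fcrl2 was called in every fit of the pooled contrast.

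Across genes, libraries of the same number in both tissues did not deviate together by the measure used: the correlation of their deviations ran from -0.536 to 0.327, over 0.1 for 3 of 8 numbers, and 1 of 8 libraries correlated best with its own number. With a replicate block on the number the pooled count was 56, at a consensus correlation of -0.127. A negative correlation lowers the standard error of the mean over both tissues, so the count of 56 is no check against shared animals. With the mean of both tissues per number as the unit, sham and ADREX numbers unpaired, the pooled count was 15, of which 12 were among the 32. Single measures did follow the number. Red blood cell transcripts of ADREX 65, 66, 67 and 68 summed to 1030, 2393, 1450 and 167 in the brainstem and 420, 1652, 1195 and 119.5 in the hypothalamus, the same order, and sham libraries also shared their order. Sgk1 was highest in sham 1 and Zbtb16 in sham 2 among the sham libraries of both tissues. The fits of 16 libraries treat same-numbered libraries as independent, which these values leave in doubt.

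Differences near 0 of uncalled genes changed sign. Nr3c2 was 0.0306 and Th -0.0116 with sample weights. Dbh was 0.0565 with a pseudocount of 0.5, 0.0329 in edgeR, 0.0559 in DESeq2 and 0.186 without the liver-rich libraries. With libraries left out, Nr3c1 ran from -0.0254 to 0.0674, Nr3c2 from -0.0921 to 0.0631, Hsd11b1 from -0.139 to 0.04, Avp from -0.632 to 0.0502, Th from -0.0373 to 0.181, Dbh from -0.14 to 0.195, AABR07063544.1 from -0.124 to 0.0276 and Chchd1 from -0.0398 to 0.176. With 4 libraries per group, calls near the threshold were fragile at low and high levels: Top2a (2.41 to 45.5 normalized counts) and Nnat (2224 to 7203) each held in 1 of 16 fits that left out 1 library, and Pla2g3 (8.83 to 155) in all 16.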

Other observations

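Top2a, the gene with the largest fitted rise, is made mainly in dividing cells. Other genes of cell division were looked at after its value was seen, without a test of the group. None of the gene lists is of cell division, so the genes given here do not stand for all such genes. Cenpf, a centromere protein, had a pooled log2 difference of 1.05 ± 0.32 and Cdk1, the mitotic kinase, of 0.80 ± 0.31, and neither passed (limma adjusted p = 0.352 and 0.515). Mki67, the usual marker of proliferation, stood at 0.06 ± 0.24 (limma adjusted p = 0.969).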
